A study of Arabidopsis thaliana with 8 samples.

Results

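The binding sites of GBF2 in tunicamycin-treated Arabidopsis thaliana seedlings were examined across the whole list of peaks that the authors deposited for this treatment. Every peak of that list was kept, so no measured value was used to choose members. The list held 767 peaks, of 1087 in the lists of both treatments together, and the authors assigned them to 744 genes.

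All 8 libraries of the study came from whole seedlings of genotype pGBF2:GBF2-Ypet (Col-0), in which GBF2 fused to the yellow fluorescent protein Ypet is driven by the GBF2 promoter itself. The seedlings were 5 days old and stood for 6 h in liquid medium with tunicamycin at 0.5 µg/mL or with its solvent DMSO. Chromatin was precipitated with an antibody against GFP, with 2 such libraries and 2 input libraries per treatment, described as biological replicates. The DMSO and input libraries carried the same transgene, and a seedling without it was not analysed here. The lists give 1 score per peak and no value per library, so depth is unknown, the spread between replicates could not be computed, and every value below describes 1 list. The DMSO list, of 320 peaks, serves as background only.

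GBF2 is a basic leucine zipper (bZIP) transcription factor of the G group, whose members bind the G-box, a short palindromic promoter element found at many light-, stress- and abscisic acid-responsive plant genes. Tunicamycin blocks N-glycosylation of proteins in the endoplasmic reticulum (ER). Glycoproteins then fail to fold, and the cell answers with the unfolded protein response, which raises chaperones and folding enzymes of the ER. A peak marks where the tagged factor was enriched on chromatin. It does not tell whether the gene beside it was transcribed.

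A small number of sites stood far above the rest. The score, a signal value that the authors give with every peak, is read here only as an order within this list. Its median over the 767 peaks was 2.47, with quartiles at 2.26 and 2.75, a lowest value of 1.90 and a highest of 7.49. A score of at least 3 was reached by 117 peaks (15.3%), of at least 4 by 26, of at least 5 by 10 and of at least 7 by 2. The list therefore consisted of a short steep head and a long flat body of similar scores. All of the 30 highest-scored peaks shared at least 1 bp with a DMSO peak, against 36.1% of the whole list (277 peaks).

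**Figure D1:**
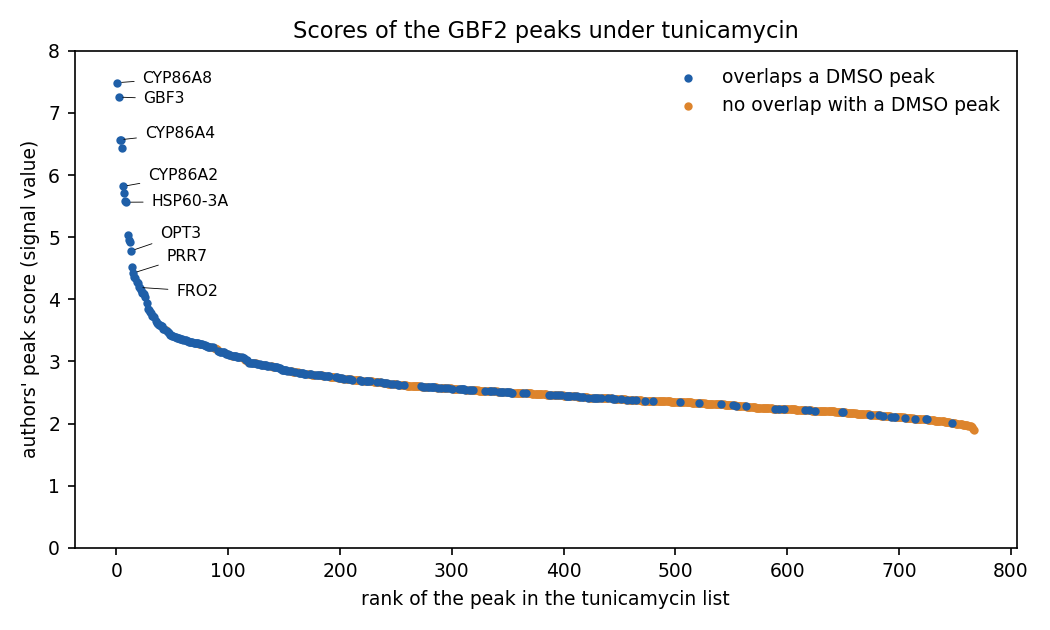
Score of each of the 767 tunicamycin peaks (vertical axis, the authors' signal value) against its rank in the list (horizontal axis), with peaks that overlap a DMSO peak in blue and the others in orange. The scores drop from 7.49 to 3.80 within the first 30 peaks, all of which are blue, and then fall slowly to 1.90.

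The genes at the head of the list had varied functions. Beyond the 4 CYP86A genes of fatty acid hydroxylation, the G-box factor gene GBF3 and the F-box genes KMD1 and KMD2, which filled 7 of the first 8 places, the highest-scored protein-coding gene was HSP60-3A at rank 9. HSP60-3A codes for a mitochondrial-type chaperonin, and its peak of 3011 bp at chr3:4566245-4569255 (TAIR10) scored 5.56. F8H, a glycosyltransferase gene related to FRA8 of xylan synthesis, followed at rank 12 with 4.93, in the 3′ UTR class. OPT3, an oligopeptide transporter family gene for iron loading into the phloem, stood at rank 13 with 4.78 at chr4:9249939-9251086.

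Lipid and redox enzymes made up a further share of these 30 genes. AOX1A, the stress-induced alternative oxidase of the mitochondrial electron transport chain, scored 4.35 at rank 17, with its peak in the class of up to 300 bp downstream of the gene. DAD1, a phospholipase that releases linolenic acid for jasmonate synthesis in anthers, scored 4.27. DGD1, which makes the galactolipid digalactosyldiacylglycerol of plastid membranes, scored 4.09 with a peak of 869 bp. FRO2, the ferric-chelate reductase of the root surface, scored 4.19 at rank 20.

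Signalling and growth genes closed the first 30. LYK4, a LysM receptor kinase of chitin perception, scored 4.18, in the distal intergenic class, and GTE7, a bromodomain protein gene, scored 4.09. TPS11, a member of the trehalose-6-phosphate synthase family, scored 3.82. BRU6, also named GH3.2, an enzyme that couples auxin to amino acids, came at rank 30 with 3.80. The other genes among the 30 were PRR7, GBF2, the pseudogene AT1G42420 (score 6.44 at rank 5) and 9 protein-coding genes for which the gene table gives no name: AT3G03790, AT1G02660, AT1G19490, AT5G01380, AT5G51560, AT5G15500, AT1G69570, AT1G62480 and AT3G62260, with scores from 5.03 to 3.84. The peak at GBF2 (4.52) can also take reads from the transgene, which carries the promoter of the gene and its coding sequence.

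Strong peaks tended to be wider. The median width of all peaks was 878 bp, with quartiles at 786 and 1080.5 bp, and 248 peaks were wider than 1000 bp. When the list was ordered by score and divided into 10 parts, the median width went from 1148 bp in the highest-scored part to 817.5 bp in the lowest. Across the 767 peaks, the Spearman correlation of width and score was 0.359, and across the 636 peaks at protein-coding genes it was 0.342. This is a description across peaks of 1 list: both quantities come from the same libraries and the same peak calling, and neighbouring peaks are not independent. It changed little without the 8 peaks wider than 3000 bp (0.343).

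The 3 widest peaks were not among the 30 highest-scored, although other wide peaks were, such as those of GBF3 (2851 bp), HSP60-3A and GBF2. The 3 widest lay at the non-coding RNA gene AT3G41761 (13467 bp, chr3:14191882-14205348, score 3.32), at AT2G01008 (9876 bp, chr2:825-10700, 3.27) and at the pseudogene AT3G60930 (9822 bp, chr3:22513274-22523095, 3.08). Together they covered 33165 of the 799311 bp in peaks (4.15%). Each of the 3 overlapped a DMSO peak. Whether repeated sequence underlies peaks of this width was not tested, so they may not be single binding sites. GBF2 (6193 bp) and the ethylene response factor gene ERF4 (3432 bp, score 3.15) completed the 5 widest. At the other end, 20 peaks were narrower than 500 bp. Of these narrow peaks 13 lay at pseudogenes and 18 overlapped a DMSO peak, against 36.1% of the whole list.

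**Figure D2:**
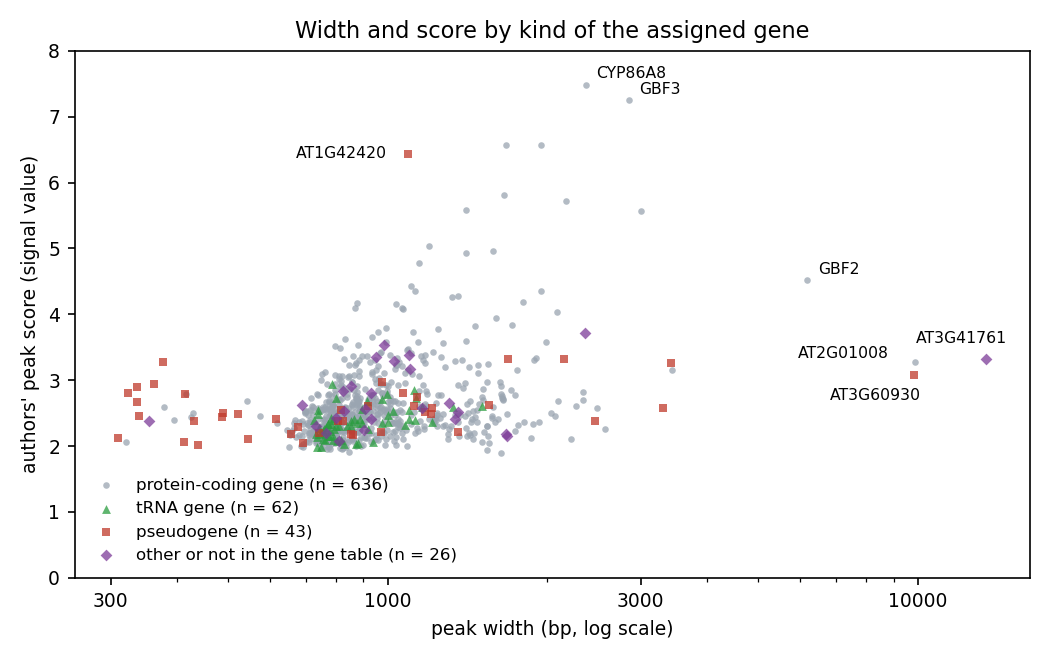
Width in bp (horizontal axis, log scale) and score (vertical axis, the authors' signal value) of each tunicamycin peak, by the kind of the gene it was assigned to. Most peaks lie near the median width of 878 bp and median score of 2.47, while peaks at tRNA genes (green triangles) all stay under a score of 3 and pseudogenes (red squares) supply most of the narrowest peaks.

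Most peaks lay close to gene starts, in all ranges of the score. By the authors' position classes, 583 peaks (76.0%, 95% Wilson interval 72.9 to 78.9%) lay in what is here called the proximal promoter class, within 1 kb of a gene start. A wide peak of this class can also reach over the gene, and the side of the start on which a peak lay was not examined. This interval and those below cover counting error only. A further 47 peaks lay in the class of 1 to 2 kb and 15 in that of 2 to 3 kb. The share of proximal promoter peaks was 67.5% in the highest-scored part of the 10 parts and between 71.1% and 83.1% in the others. The highest-scored peak of the class was that of GBF3 (7.25).

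The classes for positions inside or behind genes held few peaks, but some were among the strongest. The exon class held 30 peaks (median score 2.50), led by CYP86A4 (6.57), and 6 of its peaks belonged to a single gene, AT2G08986. The 5′ UTR class held 10 peaks, led by CYP86A8 (7.49). The 3′ UTR class held 35 peaks, all at protein-coding genes, with a median score of 2.41. Of these, 5 overlapped a DMSO peak (14.3%), against 36.1% of the whole list and 57.6% of its strongest 50%. Overlap thus varied with the score, and the difference between classes was not tested. Among the 100 highest-scored peaks of the list were 2 of the 35, F8H being one. The downstream class held 5 peaks led by AOX1A, and the only intron peak was at AT2G43140 (2.98, first intron of 5). TCP4, a leaf development factor gene, led the class of 2 to 3 kb with 3.53.

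Distal intergenic peaks numbered 41 (5.35%), with a median score of 2.51. Of these, 25 were assigned to protein-coding genes, 13 to pseudogenes, 1 to a non-coding RNA gene and 2 to genes that are not in the gene table. In the proximal promoter class, 485 of 583 peaks were assigned to protein-coding genes and 15 to pseudogenes, and the difference was not tested. LYK4 led the distal intergenic class. Of the 41 peaks, 24 overlapped a DMSO peak (58.5%), against 36.1% of the whole list, a difference that was not tested either.

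By kind of gene, 636 peaks were assigned to 622 protein-coding genes, 62 to tRNA genes, 43 to 35 pseudogenes, 4 to long non-coding RNA genes, 4 to other non-coding RNA genes and 1 to a microRNA gene. The remaining 17 peaks belonged to identifiers without an entry in the table, led by AT1G12423 with a score of 3.71. AT2G40008 led the long non-coding RNA genes with 3.53. MIR842 was the only microRNA gene, with a score of 2.19 at rank 644. The share of protein-coding genes with a peak was similar on the 5 chromosomes, from 2.11% on chromosome 2 to 2.42% on chromosome 3.

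tRNA genes formed the largest group outside protein-coding genes. They carry the adaptors of translation, are very short, and are transcribed by RNA polymerase III from promoter elements inside the gene. Of 625 nuclear tRNA genes in the table, 62 had a peak (9.92%), against 622 of 27444 protein-coding nuclear genes (2.27%). All 62 peaks belonged to the proximal promoter class. How the authors chose the gene for a peak is not given in the sources used here, and its part in this difference of shares was not tested.

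The peaks at tRNA genes were weak. Their median score was 2.33, their highest was 2.94 at AT5G45745 (chr5:18558448-18559233, rank 133), and their median width was 812.5 bp. Of the 10 parts of the list ordered by score, the highest-scored held 0 of them and the lowest held 11. A DMSO peak overlapped 12 of the 62 (19.4%), against 36.1% of the whole list and 57.6% of its strongest 50%. Since overlap varied with the score, this share is not a trait of tRNA genes alone, and the difference was not tested.

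The tRNA genes with a peak were unevenly spread over the amino acids, and this spread was not tested. The share over all nuclear tRNA genes was 9.92%. Leucine tRNA genes had a peak in 14 of 40 cases (35%), with a median score of 2.32 and a highest of 2.80. Isoleucine followed with 4 of 22 (18.2%), methionine with 4 of 24 (16.7%), alanine with 5 of 33 (15.2%) and glycine with 6 of 41 (14.6%). The 2 most numerous families lay under that share, with 4 of 75 for tyrosine (5.33%) and 2 of 66 for proline (3.03%). No peak was assigned to any of the 24 threonine or 10 histidine tRNA genes. Genes of 1 family have near-identical copies, so reads from them may not have been told apart, and the treatment of such reads is not given in the sources used here.

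**Figure D3:**
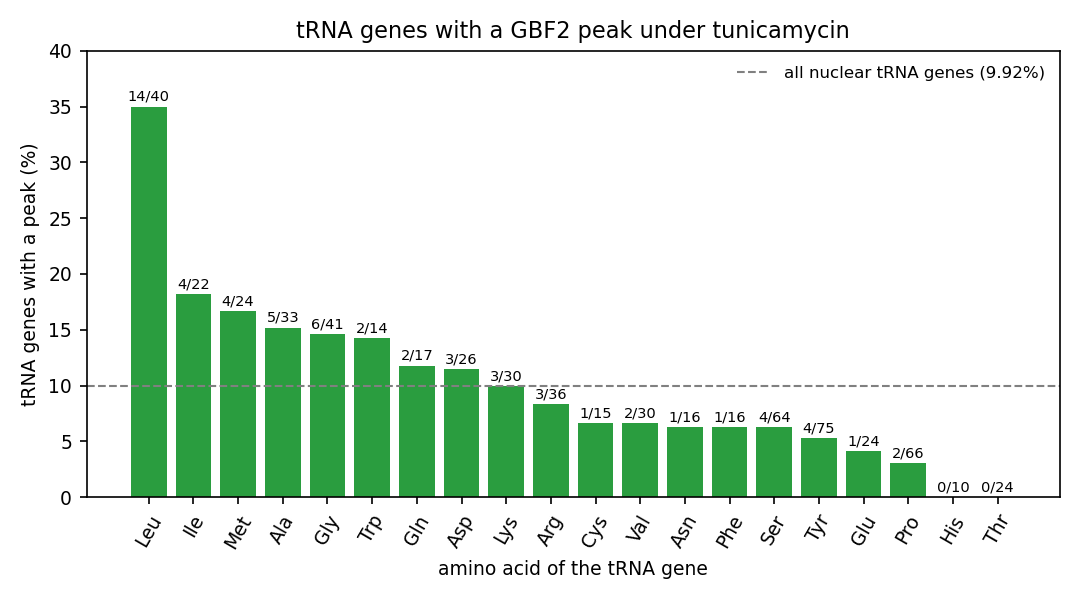
Share of nuclear tRNA genes with a tunicamycin peak (vertical axis, percent) for each amino acid (horizontal axis), with the count of genes with a peak and of all genes over each bar. Leucine stands highest with 14 of 40 genes, threonine and histidine at 0, and the dashed line marks the 9.92% of all nuclear tRNA genes.

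The functions of the protein-coding genes were described with 34 lists of pathway and family members, 729 distinct genes in all. Of these, 77 had a peak (10.6%), against the background of 2.27% of all protein-coding nuclear genes. Among the 10374 with a symbol, 3.25% had one, a closer background for lists written by symbol. The lists were written with earlier results of the same data known, so these shares describe the lists and are no separate evidence. The 77 peaks had a median score of 2.64, and the peaks of all protein-coding genes with a peak 2.48. In 24 lists at least 1 member had a peak. In the other 10 no member had one, and their upper Wilson limits, all 12.1% or more, lie above the background of 2.27%, so a count of 0 in them is near the background and no result about the list. When only the strongest 50% of peaks counted, 50 of the 729 genes had one (6.86%), against 1.17% of all protein-coding nuclear genes.

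**Figure D4:**
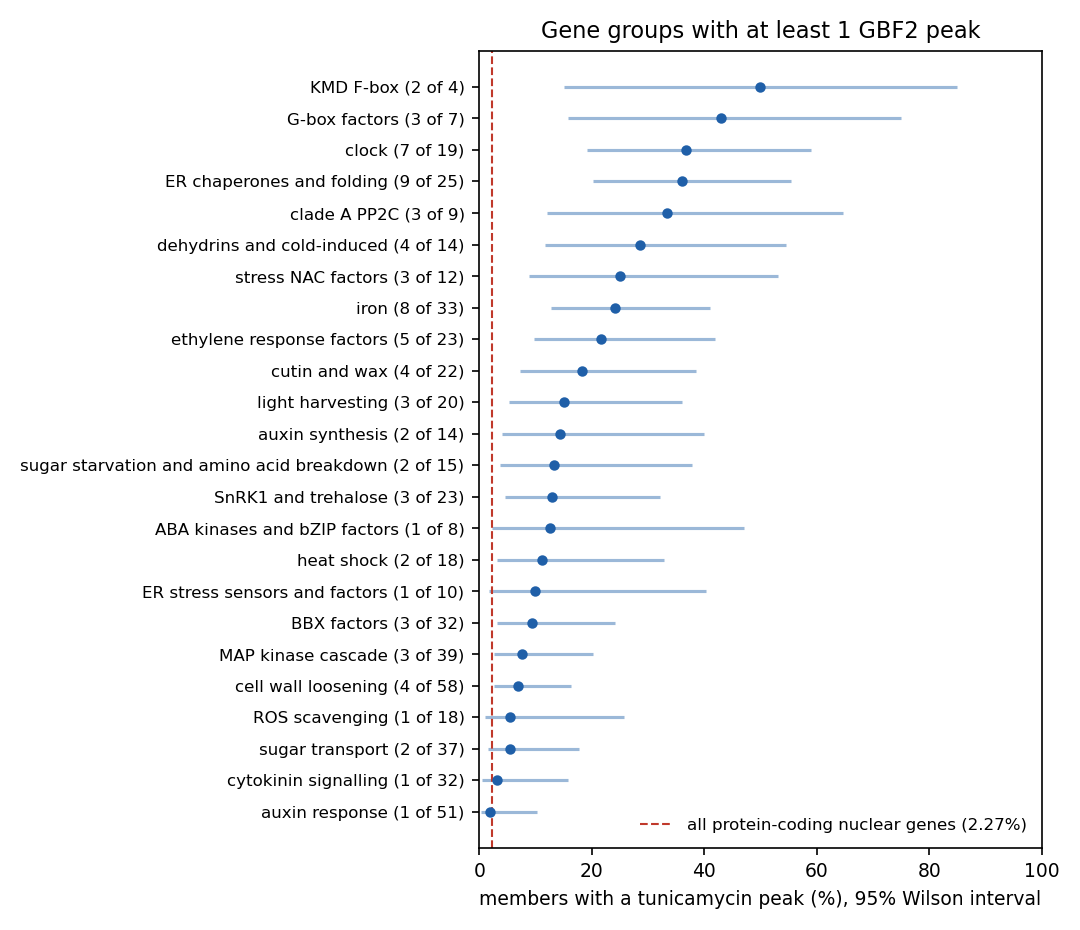
Share of the members of each gene list with a tunicamycin peak (points, with 95% Wilson intervals for counting error as bars), for the 24 lists with at least 1 such member, with the counts beside the names. The dashed line marks the 2.27% of all protein-coding nuclear genes. Among those with a symbol the share was 3.25%, which is not drawn. The lists range from 50% for the KMD F-box genes to 1.96% for auxin response.

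Genes of iron handling held peaks in several of its steps, from reduction to storage. Plants reduce ferric iron at the root surface, take it up, move it through the phloem and store the surplus in ferritin. Of 33 genes, 8 had a tunicamycin peak (24.2%, 12.8 to 41.0%), against the background of 2.27%. Their median score was 3.15. Among them were 2 of 8 reductase genes, FRO2 (4.19) and FRO3 (3.43), the latter for a mitochondrial reductase. Transport was represented by 2 of 10 genes, OPT3 (4.78) and NRAMP3 (2.35), which releases iron from the vacuole.

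Storage and control genes of iron completed this group. Of 4 ferritin genes, FER1 scored 3.34 at chr5:229342-231248 and FER3 scored 2.64. The regulators with a peak were PYE (2.95), a bHLH factor of the iron deficiency response, and BTS (2.34), a ubiquitin ligase that restrains that response. The uptake regulator FIT, the 4 bHLH genes of subgroup Ib, the uptake transporter IRT1 and the 4 nicotianamine synthase genes had no peak. For so few genes that is near the background of 2.27%. The DMSO list gave a peak to 5 of the 33, namely FRO2, FRO3, OPT3, FER1 and PYE, where 0.849% of all protein-coding genes had one, and these were the 5 with the highest tunicamycin scores.

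The trehalose pathway, which links sugar status to growth, had 3 of its 21 listed genes with a peak, all of the proximal promoter class. The background was 2.27% of all protein-coding nuclear genes. TPS11 scored 3.82 at chr2:8107369-8108831 and TPS7 2.61, both of the class II synthases, whose catalytic activity is in doubt. TPPA, a trehalose-6-phosphate phosphatase gene, scored 3.25. The 2 catalytic subunit genes KIN10 and KIN11 of the SnRK1 kinase, which trehalose 6-phosphate inhibits, had no peak. For 2 genes that is near the background. Sugar transport was touched at 2 of 37 genes (5.41%), the sucrose exporter SWEET15 (2.93) and the hexose importer STP1 (2.21). The Wilson interval of this share, 1.5 to 17.7%, includes the background.

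Abscisic acid (ABA) signalling runs from receptors through phosphatases to kinases and transcription factors. Of 9 clade A PP2C genes, the phosphatases that the receptors inhibit, 3 had one, namely HAI2 (2.63), HAI1 (2.61) and PP2CA (2.14). Of 8 listed genes for SnRK2 kinases and bZIP factors of the ABA response, SNRK2.3 had a peak (3.06), and SNRK2.7, a kinase gene outside the list, had one of 2.29. None of the 14 receptor genes had a peak, which is near the background of 2.27% for a list of this length (upper Wilson limit 21.5%).

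Protective proteins of drought and cold included a neighbouring pair. Dehydrins bind water and membranes during drying and freezing. ERD10 scored 2.98 at chr1:7089344-7090974, and COR47, the gene next to it, scored 2.61 at chr1:7085935-7087114. ERD14 (2.37) and KIN2 (2.24) brought the list to 4 of 14 (28.6%), against the background of 2.27%. The peak of ERD10 overlapped a DMSO peak, 1 of 4, against 36.1% of the whole list.

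Transcription factor genes of stress responses were also represented. Of 12 stress NAC genes, 3 had a peak: ATAF1 (2.58), NAC055 (2.23) and ATAF2 (2.08). Of 23 ethylene response factor genes, 5 had a peak, with scores of 3.15 for ERF4, 2.85 for ERF15, 2.79 for ERF8, 2.45 for ERF5 and 2.29 for ERF12. ERF4, ERF8 and ERF12 belong to the repressors of this family. Of 28 genes of ethylene synthesis and perception 0 had a peak (upper limit 12.1%), which is near the background of 2.27%, and the difference between the lists was not tested.

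B-box factor genes with a peak were 3 of 32 (9.38%), against the background of 2.27%. All 3 code for proteins with a single B-box. BBX28 scored 3.60 at rank 37, at chr4:13674198-13675601, BBX27 scored 2.79 and BBX29 scored 2.49. BBX28 is known to hold back the light signalling factor HY5. The 20 genes of photoreceptors and PIF factors had no peak (upper limit 16.1%), which is near that background.

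The clock held 7 of 19 genes with a peak (36.8%), against the background of 2.27% of all protein-coding nuclear genes. Besides the pseudo-response regulator genes TOC1, PRR3, PRR5 and PRR7 and the morning genes CCA1 and LHY, which scored between 1.99 and 4.42, the seventh was FKF1, the gene of a blue-light receptor F-box protein of flowering time (2.52, chr1:25507876-25508815). The evening complex genes ELF3, ELF4 and LUX, as well as GI and ZTL, had no peak, which is near the background for so few genes. BOA, a relative of LUX outside the list, had one (2.53).

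Within the MAP kinase cascade, 3 of 39 genes had a peak (7.69%). Of 9 listed MAPKKK genes, the first tier, 3 had a peak: MAPKKK15 (2.54), MAPKKK14 (2.48) and MAPKKK17 (2.34). MAPKKK17 is known as an ABA-responsive kinase. Of the 30 genes of the MKK and MPK tiers 0 had one, which is near the background of 2.27%, and the difference between the tiers was not tested.

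In other hormone pathways few of the listed genes had a peak, and the lists are short against the background. Auxin synthesis had peaks at the flavin monooxygenase genes YUC9 (2.77) and YUC8 (2.22), 2 of 14, whereas auxin response had 1 of 51, the repressor gene IAA16 (2.35). Cytokinin signalling had 1 of 32, the type-A response regulator gene ARR8 (2.24). No peak was assigned to the listed 27 jasmonate, 25 gibberellin, 13 brassinosteroid or 12 auxin transport genes, and the jasmonate list did not hold DAD1, which had a strong peak (4.27). The shares for auxin response (1.96%) and cytokinin (3.12%) lie near the background of 2.27%.

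Plastid and cell wall genes gave mixed counts, given here beside the background of 2.27% of all protein-coding nuclear genes. Of 20 light harvesting genes, 3 had a peak (15%), namely the antenna genes LHCB6 (3.09), LHCB4.2 (2.35) and LHCB2.3 (rank 638). CAT2, the main leaf catalase, scored 2.89 and was the only one of 18 genes of reactive oxygen scavenging (5.56%). That count is near the background, which lies inside its Wilson interval of 0.988 to 25.8%. Cell wall loosening had 4 of 58 (6.9%, 2.71 to 16.4%), with the expansin gene EXPA16 (3.28) and the xyloglucan transferase genes XTH27 (2.74), XTH28 (2.16) and XTH9 (rank 641).

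ER chaperone and folding genes were spread over the list. Of 25 such genes, 9 had a peak (36%), against the background of 2.27%. Their median score was 2.67, from CRT1A (3.43) at rank 49 to SDF2 at rank 690. The 48 peaks above CRT1A included 1 further chaperone gene among the listed ones, HSP60-3A, which is not of the ER. Of the sensors and factors of the unfolded protein response, NAC089 alone had a peak (2.51), 1 of 10, which is near that background.

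**Figure D5:**
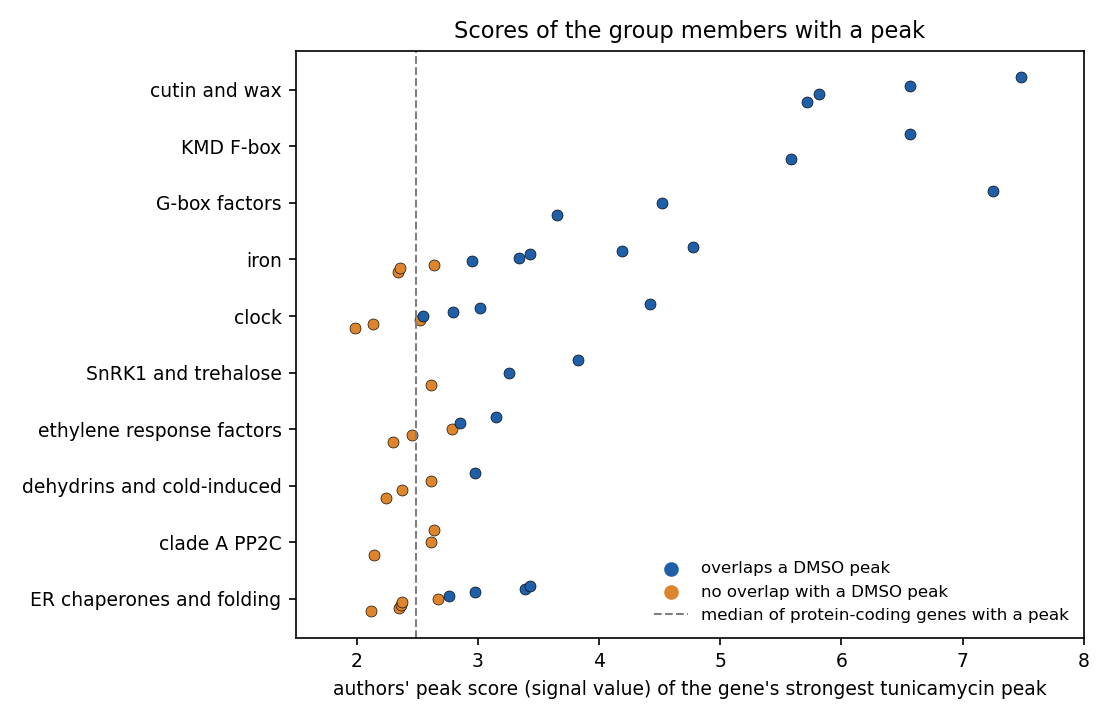
Score of the strongest tunicamycin peak of each member with a peak (horizontal axis, the authors' signal value) for 10 gene lists (vertical axis), in blue where the peak overlaps a DMSO peak and in orange where it does not. The CYP86A genes, listed under cutin and wax, and the KMD genes lie at 5.58 or above, and the iron genes run from 2.34 to 4.78. The 3 clade A PP2C genes lie at 2.63 or below and are orange, as most peaks of the whole list would be (36.1% overlap a DMSO peak).

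Further lists covered cutin and wax, heat shock and sugar starvation. In the cutin and wax list, the 4 genes with a peak were all CYP86A omega-hydroxylases, 4 of 5 of that family. Of the 17 other genes of cutin and wax synthesis and transport 0 had one, which is near the background of 2.27%. The 2 KMD genes with a peak, KMD1 and KMD2, were 2 of 4. No peak was found at the 12 flavonoid genes, the 13 reference genes or the 22 autophagy genes that could be matched. Of the 25 autophagy symbols written, 3 had no match in the gene table, ATG1A among them, so that list is incomplete. In heat shock, HSP101 (2.23) and HSP60-3A were 2 of 10 chaperone genes. Of 8 heat stress factor genes 0 had a peak, which is also near that background. DIN10 (2.26), a raffinose synthase family gene, and MCCA (2.27), for a subunit of methylcrotonyl-CoA carboxylase in leucine breakdown, were 2 of 15 genes of sugar starvation.

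A second grouping used words in the gene names and synonyms of the table, which covers 10374 protein-coding genes with a symbol, of which 337 had a peak (3.25%). Genes whose names lack such a word are missed, so the counts are not shares of whole families. By this grouping 4 of the 18 protein phosphatase 2C genes found had a peak (22.2%), with PP2CG1 added to the 3 of clade A. NAC factors had 8 of 102 (7.84%) and F-box and kelch proteins 5 of 34 (14.7%). Large families lay near the background of 3.25%, such as MYB-related factors at 6 of 147 (4.08%) and protein kinases at 9 of 280 (3.21%). Also near it were transporters at 11 of 433 (2.54%) and cytochromes P450 at 6 of 232 (2.59%), 4 of which were CYP86A genes. None of the 67 ribosomal protein genes found in this way had a peak, which is near that background. The same holds for 0 of 14 genes found by words for late embryogenesis proteins and dehydrins, which did not include ERD10, COR47, ERD14 or KIN2.

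Peaks also came in groups along the chromosomes. Peaks no more than 5000 bp apart formed 48 pairs and 4 larger groups. The largest held 8 peaks at AT2G07981 and AT2G08986, at chr2:3615642-3626811, with scores from 2.40 to 2.79, and all 8 overlapped a DMSO peak. AT2G08986 alone had 7 of them, 6 in exons, while 726 of the 744 genes had a single peak. Each of the 3 other larger groups was assigned to pseudogenes. Of the 43 pseudogene peaks in the list, 32 overlapped a DMSO peak (74.4%), against 34.6% of peaks at protein-coding genes, and the difference was not tested.

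In the order of genes in the table, 21 pairs and 2 triplets of adjacent genes each had a peak. The triplets were AT2G07880, AT2G07981 and AT2G08986 on chromosome 2 and the pseudogenes AT3G33000, AT3G33002 and AT3G33004 on chromosome 3. The pairs joined AOX1A (4.35) with TIC, a gene of clock function (2.82), and HSP60-3A (5.56) with RHD3, a gene of ER network shape (2.41). Since each peak was given to 1 gene, a neighbour without a peak of its own may lie as close to the site as the gene named.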

How the data were processed

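GBF2 binding was measured by chromatin immunoprecipitation and sequencing in 4 groups of 2 libraries. The build was TAIR10, and the tools were MACS2 2.1.2, Bowtie 1.1.2, SAMtools 1.8, cutadapt 1.8.1 and FastQC 0.11.5, per the submitters' processing notes. Not given in the sources used here are their roles, the peak threshold, how replicates were pooled, how input was used and how reads with several positions were treated. Peak lists were deposited by the authors with a score, called a signal value per the file headers, and a width, a position class and 1 gene for each peak. Depth per library is unknown, so scores were used to order peaks within the tunicamycin list only, and no test over samples was possible.

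Peaks shared with the DMSO list overlap by at least 1 bp. Shares carry 95% Wilson intervals. Names, kinds and the order of genes were taken from RefSeq's gene table for TAIR10.1, where 727 of the 744 assigned genes were found. The table gives no kind for 12 genes, which were counted as protein-coding. The 34 gene lists held 738 symbols, of which 730 were matched to 1 gene each, 26 of them through other names written by hand, giving 729 distinct genes.

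The peaks, lists and families were chosen with earlier results of these data known, and some word patterns of the families were narrowed after values were seen. Genes were named by rule: those of the 30 highest-scored and 5 widest peaks, the leader of each class and kind, list members with a peak, and triplets of adjacent genes. Others, such as adjacent pairs, genes outside the lists and genes without a peak, were chosen after their values were seen. Overlaps and intervals were tested on simulated data. Searches for the G-box and other promoter elements were planned and not run, since no promoter sequence was used here. Alternatives covered the strongest 50% of the list, protein-coding genes alone, wide peaks, position class and overlap. The work used matplotlib 3.10.9, SciPy 1.17.1, numpy 2.4.6 and pandas 2.3.3 under Python 3.11.15.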

Additional observations from a re-analysis of the deposited data

How the results depend on the processing

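With the strongest 50% of the list (384 peaks, scores of at least 2.47), fewer peaks enter by construction: 374 genes had a peak, 57.6% of peaks overlapped a DMSO peak, and 50 list members and 47 members of the word-based families had a peak, where the full list gave 77 and 82. Of the 24 lists with a member, 21 still had one, and 12 counts stayed within 1.5 times of the full count. Promoter classes of up to 2 kb and 3 kb held 82.1% and 84.1% of peaks, wider by construction. With promoter classes of up to 3 kb alone, 72 list members had a peak, and cutin and wax fell from 4 to 1 and the KMD genes from 2 to 1. An overlap of at least 50% of the peak gave 35.9%, and leaving out peaks wider than 3000 bp gave 76.0% of peaks within 1 kb. No paired analysis was possible because the lists hold no values per library, and for the same reason no replicate could be left out. The alternatives for promoter motifs were not run. Without depth or replicate values, a gene without a peak cannot be told from one whose binding was too weak to be called.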

Other observations

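Further gene families were looked up after the values of the list had been seen, by name in the TAIR10.1 table, and are given as counts of members with a tunicamycin peak beside the 3.25% of protein-coding genes with a symbol. Nuclear subunits of photosystems and plastid electron transport had a peak at 8 of 33 genes (24.2%). The highest-scored were PSBQ-2 (3.10) and PSBR (3.07) of photosystem II and DRT112 (3.02), a plastocyanin gene, and the others were Pnsl5 (2.83), PSBP-1 (2.55), PSAH-1 (2.52), PSB27 (2.52) and PSAK (2.11). Aquaporins, the water channels of plant membranes, had a peak at 6 of 35 genes (17.1%), led by PIP2A (3.23), PIP1;4 (2.76) and PIP3 (2.69), whose peaks were all in the promoter class of 1 to 2 kb. The tunicamycin peaks of 5 of these 6 genes and of 4 of the 8 photosystem genes overlapped a DMSO peak. Of all tunicamycin peaks at protein-coding genes, 34.6% did so. PIP3 lies close to the catalase gene CAT2, and their peaks fell within chr4:16703856-16706736.

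Small families of ABA, auxin and cold responses also held several members. Of 4 genes for ABI5-binding proteins, which restrain ABA signalling, 3 had a peak, namely TMAC2 (3.34), AFP1 (2.73) and AFP3 (2.55). Of 10 GH3 enzyme genes 3 had one, with GH3.3 (2.61) and DFL1 (2.24) besides BRU6. Galactinol synthases, which supply raffinose sugars in drought and cold, had 2 of 8, GolS2 (2.95) and GolS3 (2.67). The cold response factor genes CBF2 (2.41) and CBF1 (2.27) made 2 of 4, and the peak of CBF1 was in the 3′ UTR class. Neither peak overlapped a DMSO peak, as was true of most peaks of the list (36.1% overlapped one). CBL-interacting kinases had 3 of 26, CIPK15 (2.79), CIPK20 (2.55) and CIPK12 (2.45), and REVEILLE factors 2 of 5, RVE1 (2.73) and RVE2 (2.48). Families were picked because members were seen in the list, so these shares are no evidence that the families stand apart.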
